A study of Mus musculus with 11 samples.

Results

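Primitive endoderm regulators and markers were followed in mouse induced pluripotent stem cells (iPSC) through 10 genes: Gata4, Gata6, Sox17, Sox7, Foxa2, Dab2, Hnf4a, Amn, Fst and Pdgfra. The members were chosen by name, as every array probe annotated with 1 of these symbols, and each probe was read apart. These are 10 of the 17711 genes named on the array, read by 16 of its 46627 probes. Of the 16 probes 13 passed the filter on dim probes, with at least 1 for each gene. Where a gene has more than 1 probe, the probes are numbered by brightness over all arrays.

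RNA of 3 cultures of C57BL/6 origin was hybridised to Illumina BeadChips, which give 1 bead intensity per probe. Feeder cells (2 arrays, named MSTO in the labels) were embryonic fibroblasts that express LIF, the cytokine that holds mouse pluripotent cells undifferentiated. Feeder-free iPSC (3 arrays) grew with 1000 units of LIF per ml in medium with 15% fetal bovine serum, and iPSC on feeder (3 arrays) grew on cells that the growth protocol names as mitomycin C-treated SNL76/7 and were lifted off the layer mechanically. The authors also computed 3 in silico mixtures, each 92% feeder-free signal with 8% from feeder cells. How MSTO cells relate to SNL76/7 is not stated in the labels, nor that replicates were separate cultures, so p-values measure only the spread between these arrays. The question put by the design is how the presence of feeder cells changes the iPSC.

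Primitive endoderm is the epithelium that separates from the pluripotent epiblast inside the mouse blastocyst and later forms the visceral and parietal endoderm of the yolk sac. FGF signalling through ERK favours it, GATA6 and then GATA4, SOX17 and SOX7 specify it, and FOXA2 and HNF4A act in its visceral derivative. Cultures of mouse pluripotent cells are known to hold a varying minority of cells that express these factors. In such bulk RNA, fewer cells of a type and less RNA per cell cannot be told apart.

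GATA factors bind short DNA letters, so the promoters of the members were searched for the letters AGATAA, for those of AGATAG, for those of TGATAA and for those of TGATAG, on both strands. RefSeq windows (build GRCm38.p6, 250 bases before to 50 after a start site) were at hand for 5 of the 10 genes, with 9 windows in all: Foxa2, Hnf4a, Pdgfra, Amn and Dab2. Windows of Foxa2, Hnf4a and Dab2 held a match, 3 of the 9, and 29.8% of all 32851 windows in the table held one. Shown are a window of Dab2, whose difference between the iPSC cultures did not pass the test, 1 of Foxa2 and that of Amn, which both fell on feeder. Capitals mark the GATA letters, read on the strand of the gene.
Dab2, chr15:6299539-6299838, plus strand: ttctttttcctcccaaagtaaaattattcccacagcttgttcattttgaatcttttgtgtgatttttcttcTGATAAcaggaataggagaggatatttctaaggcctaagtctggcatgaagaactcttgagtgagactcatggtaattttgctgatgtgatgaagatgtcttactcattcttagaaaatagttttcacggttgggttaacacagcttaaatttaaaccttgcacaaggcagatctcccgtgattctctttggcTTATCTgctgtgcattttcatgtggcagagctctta
Foxa2, chr2:148045415-148045714, minus strand: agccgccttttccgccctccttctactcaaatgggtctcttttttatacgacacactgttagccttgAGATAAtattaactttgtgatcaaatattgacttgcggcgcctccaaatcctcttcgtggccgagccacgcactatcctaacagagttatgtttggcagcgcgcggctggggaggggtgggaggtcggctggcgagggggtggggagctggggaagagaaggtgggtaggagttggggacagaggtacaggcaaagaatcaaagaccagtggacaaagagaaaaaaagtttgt
Amn, chr12:111270846-111271145, plus strand: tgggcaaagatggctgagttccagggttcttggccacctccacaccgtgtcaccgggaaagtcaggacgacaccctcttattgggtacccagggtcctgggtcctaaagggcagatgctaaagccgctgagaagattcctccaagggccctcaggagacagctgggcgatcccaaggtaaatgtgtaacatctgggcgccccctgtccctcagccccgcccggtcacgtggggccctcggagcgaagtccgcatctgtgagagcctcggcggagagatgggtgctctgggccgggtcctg
The Dab2 window held 2 matches, 1 on each strand, at 179 bases before and 15 bases after its start site. The Foxa2 window held 1 match, 183 bases before its start site, and the Amn window held none. The other Dab2 window and the other 2 Foxa2 windows held none either. A match describes the letters of a window only, and which start site the arrays read is not given.

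All levels below are log2 intensities after background correction and quantile normalization, and a probe counts as detected on an array where its detection score exceeds 0.95. The number of detected probes per array was 13581 to 14574 for feeder cells, 17307 to 18759 for feeder-free iPSC and 17630 to 19043 for iPSC on feeder. The deposited columns headed as single feeder-free arrays were pools, so each feeder-free array was recovered from a mixture column. Summed levels of 9 measured fibroblast markers ran from 35827 to 38502 signal units on feeder arrays, from 5246 to 5506 on feeder-free arrays and from 11237 to 11939 on on-feeder arrays. Vim alone, with means of 14.24, 12.12 and 13.20 in that order, made up most of the sum on iPSC arrays. Vim also exceeded the mixture (0.73, limma adjusted p = 0.00195), so the sum is no measure of feeder share. The median difference of the 9 markers between the iPSC cultures was 1.078. Fibroblast marker signal thus moved with the culture, and feeder levels are set beside each member.

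In iPSC on feeder, 6 of the 13 member probes were lower than in feeder-free iPSC and 1 was higher (limma, adjusted p below 0.05 over all 18144 probes tested). Of all probes tested, 5.79% were lower and 7.26% higher. The 6 that fell read Gata4 (1 of its 2 kept probes), Sox17, Sox7, Foxa2, Amn and Fst, and the probe that rose was the brighter one of Pdgfra. Gata6, Dab2, Hnf4a and the second kept probes of Gata4 and Pdgfra did not pass the test. The arrays of both cultures did not overlap for 7 member probes that lay lower on feeder and 1 that lay higher, against 16.4% and 15.5% of all probes. The median difference was -0.301 over the 13 member probes and -0.026 over all probes. With each array scaled to the median of all probes in place of quantile normalization, only Gata4 probe 1 and Fst still passed, and 160 of all probes were lower. The differences of the other 5 stayed close in size while their standard errors grew: -0.433 (SE 0.229) for Sox17, -0.475 (SE 0.244) for Sox7, -0.651 (SE 0.174) for Foxa2, -0.607 (SE 0.191) for Amn and 0.625 (SE 0.243) for Pdgfra probe 1.

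**Figure D1:**
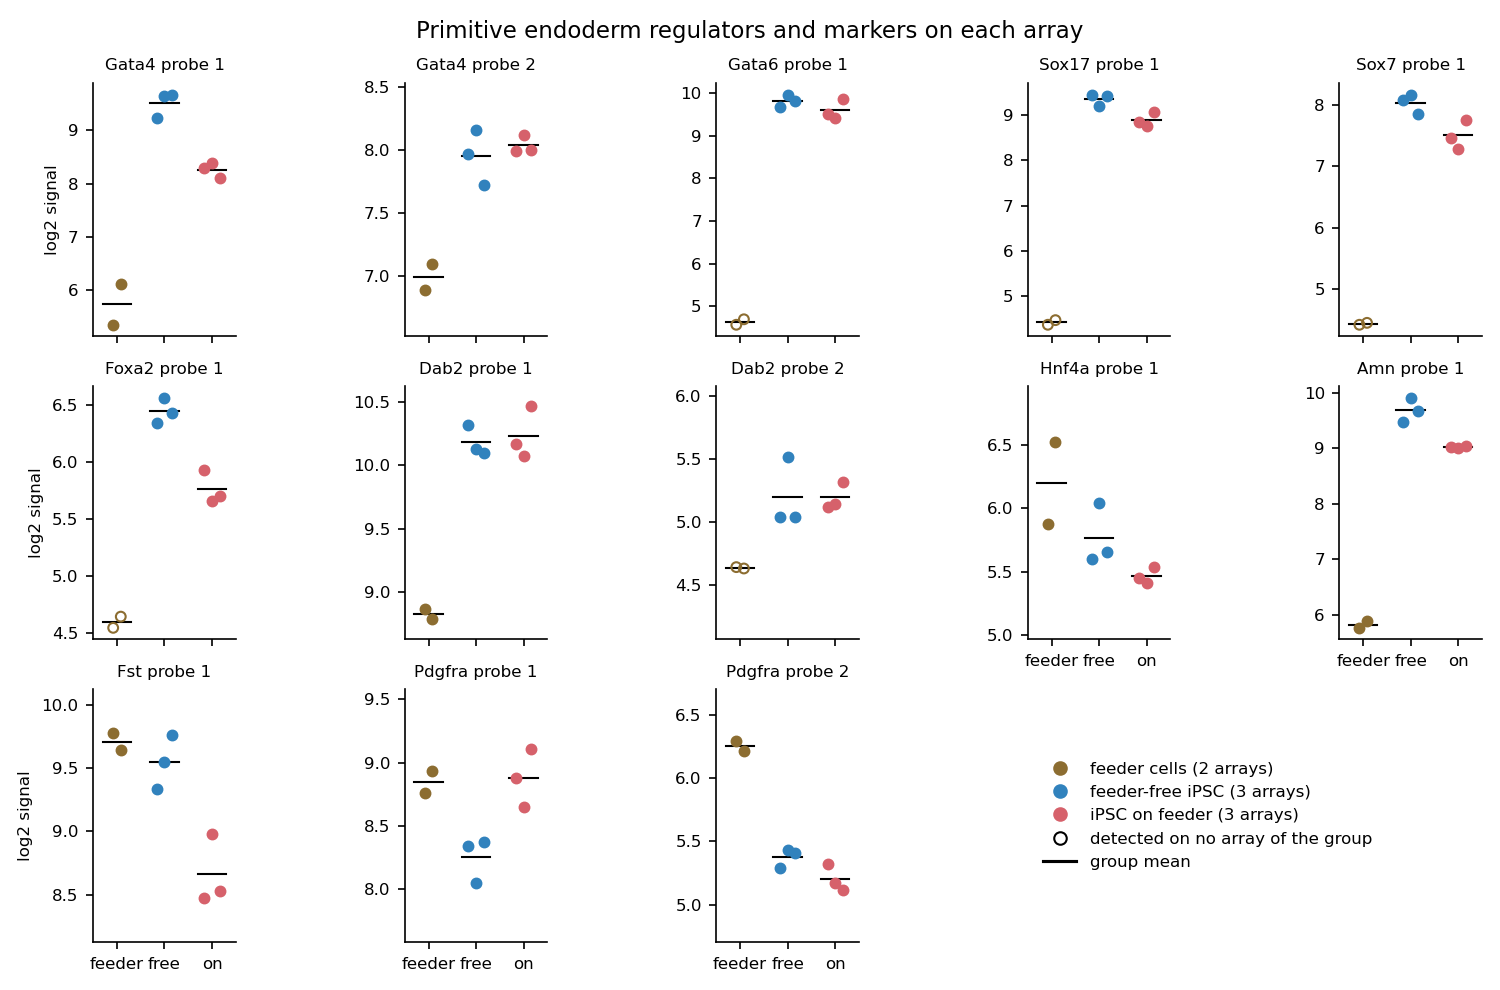
Log2 signal of the 13 kept member probes on each of the 8 arrays, 1 panel per probe, with feeder cells in brown, feeder-free iPSC in blue, iPSC on feeder in red and the group mean as a black line; the vertical scale differs between panels, and open points mark a group without a detected array. Gata4 probe 1 stood at 8.11 to 8.38 on feeder and at 9.24 to 9.68 without, while the arrays of Gata6 and Dab2 overlapped.

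Gata4, a zinc-finger factor that drives the extraembryonic endoderm programme, had the largest fall among the member probes. Its probe 1 (ILMN_1243896) read 9.24, 9.64 and 9.68 on the feeder-free arrays and 8.30, 8.38 and 8.11 on the on-feeder arrays. All 3 on-feeder arrays lay below all 3 feeder-free ones. The level was 2.39-fold lower on feeder (log2 difference -1.26, SE 0.18, limma adjusted p = 0.000767), and over 17 other settings the difference ran from -1.40 to -1.10 with an adjusted p of at most 0.0138. Feeder cells read 5.35 and 6.12, with 1 of the 2 arrays detected. This probe stood 13.8-fold above them in feeder-free iPSC (3.79, SE 0.21, adjusted p = 4.3e-09), a fold that rests in part on a feeder array without a detected signal and read 8.73 with an offset of 50 and 6.55 without background correction.

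The second Gata4 probe (ILMN_1239624) gave another picture. It read 7.97, 8.16 and 7.72 without feeder cells and 7.99, 8.12 and 8.00 on them, and the arrays overlapped. The difference was 0.09 (95% interval -0.18 to 0.36, adjusted p = 0.689), an interval that does not reach the fall seen by probe 1. Within each array the gap between the 2 probes was 1.57 on average in feeder-free iPSC and 0.22 on feeder, a change of -1.35. An exact permutation test of that change gave p = 0.1, the smallest that 3 against 3 arrays allow. Probe 2 was detected on both feeder arrays, at 6.90 and 7.10, and feeder-free iPSC stood 0.95 above them (SE 0.14, adjusted p = 4.6e-05). Both probes carry the same RefSeq transcript in the annotation, and why they differ was not tested.

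Gata6, which acts at the head of the primitive endoderm programme, did not pass the test. Its probe 1 (ILMN_2868133) read 9.68, 9.97 and 9.82 in feeder-free iPSC and 9.51, 9.42 and 9.87 in iPSC on feeder. On-feeder array 3 lay within the feeder-free range and the other two below it. The difference was -0.23 (95% interval -0.52 to 0.06, adjusted p = 0.287), which leaves room for a fall of up to 0.52. Neither feeder array detected Gata6, which was at least 20.3-fold higher in feeder-free iPSC (adjusted p = 1.8e-11) and at least 17.3-fold higher in iPSC on feeder (adjusted p = 3.89e-11). These lower bounds hold for the offset of 16 used here: with an offset of 50 the fitted folds were 16 and 13.8, and without background correction 11.5 and 9.96. Its other probe (ILMN_1255968) was left out by the filter, with 1 of 3 arrays detected in each iPSC culture and levels from 4.56 to 5.19 over all 8 arrays.

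Both SOX factors of the F group were lower on feeder. Sox17, which acts in primitive and definitive endoderm, read 9.44, 9.19 and 9.42 without feeder cells and 8.84, 8.75 and 9.05 on them (ILMN_2747986). The groups did not overlap, although the gap between the nearest arrays was small. Sox17 fell by 0.47 on the log2 scale (SE 0.12, adjusted p = 0.0212), or 1.39-fold. That call was lost with median scaling (adjusted p = 0.456) and on leaving out feeder-free array 1 or 3 or on-feeder array 1 or 2 (adjusted p from 0.053 to 0.0803). Neither feeder array detected Sox17, which was at least 14.6-fold higher in feeder-free iPSC and at least 10.5-fold higher in iPSC on feeder, with fitted folds of 12.4 and 9.11 at an offset of 50 and of 9.9 and 7.41 without background correction.

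Sox7, known as a mark of parietal endoderm, read 8.08, 8.18 and 7.86 in feeder-free iPSC and 7.47, 7.29 and 7.77 in iPSC on feeder (ILMN_2653251). On-feeder array 3 came close to the lowest feeder-free array, and the groups stayed apart. Sox7 fell by 0.53 (SE 0.13, adjusted p = 0.0227). The call ended with median scaling (adjusted p = 0.44), with all probes kept (0.0696), and without feeder-free array 1 or 2 or on-feeder array 1 or 2 (adjusted p from 0.0553 to 0.0945). Neither feeder array detected it, which puts feeder-free iPSC at least 5.88-fold and iPSC on feeder at least 4.07-fold above them, with fitted folds of 5.35 and 3.9 at an offset of 50 and of 4.52 and 3.42 without background correction. The other Sox7 probe (ILMN_1234505) was detected on none of the 8 arrays, at 4.53 to 4.72.

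Foxa2, a forkhead factor of visceral endoderm, was dim but cleanly separated. It read 6.34, 6.56 and 6.43 on feeder-free arrays and 5.92, 5.66 and 5.70 on on-feeder arrays (ILMN_1246216). Each on-feeder array lay below each feeder-free one. Foxa2 fell by 0.68 (SE 0.11, adjusted p = 0.00183), or 1.60-fold, a call that ended only with median scaling (adjusted p = 0.064) among the 17 other settings. It was not detected in feeder cells, and it was at least 1.94-fold higher in feeder-free iPSC and at least 1.21-fold higher in iPSC on feeder than in feeder cells, and the first of these read 1.87-fold without background correction. Foxa2 probe 2 (ILMN_1229325) was detected on no array, at 4.41 to 4.79.

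Hnf4a, a nuclear receptor needed in visceral endoderm, was detected on every array but dim. Its probe (ILMN_1237767) read 5.60, 6.04 and 5.66 without feeder cells, 5.45, 5.41 and 5.54 on them, and 5.88 and 6.52 in the feeder cells themselves. All on-feeder arrays lay below all feeder-free ones, yet the difference of -0.30 (95% interval -0.66 to 0.06) did not pass (adjusted p = 0.25). Feeder-free iPSC read -0.43 against feeder cells (SE 0.18, adjusted p = 0.0448) with overlapping arrays. That value became 0.17 with median scaling. The call also ended without background correction (adjusted p = 0.0636), with an offset of 50 (0.0525), with all probes kept (0.129) and on leaving out any of 6 arrays: feeder array 2 (-0.12), feeder-free array 1 or 3, or any on-feeder array. Hnf4a was not called higher in either iPSC culture than in feeder cells.

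Dab2 and Amn serve protein uptake in the visceral endoderm. Dab2 is an adaptor that couples receptors to clathrin, and its bright probe 1 (ILMN_2627627) read 10.32, 10.13 and 10.10 in feeder-free iPSC and 10.17, 10.08 and 10.47 in iPSC on feeder. The ranges overlapped fully. The difference was 0.05 (95% interval -0.21 to 0.32, adjusted p = 0.813), and probe 2 (ILMN_2543173, 5.04 to 5.52 and 5.12 to 5.32) gave -0.00 with an interval of -0.30 to 0.29. Feeder cells also carried Dab2 by probe 1, at 8.86 and 8.79, and feeder-free iPSC were 2.56-fold above them (1.36, SE 0.14, adjusted p = 1.41e-06).

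Amn, the membrane anchor of the cubilin uptake receptor, behaved unlike Dab2. It read 9.47, 9.91 and 9.67 without feeder cells and 9.025, 9.002 and 9.047 on them (ILMN_2675289). The on-feeder arrays lay close together and all below the feeder-free ones. Amn fell by 0.66 (SE 0.12, adjusted p = 0.00335), or 1.58-fold, and the call ended with median scaling (adjusted p = 0.131). Feeder arrays read 5.77 and 5.88, so feeder-free iPSC stood 14.5-fold above feeder cells (3.86, SE 0.13, adjusted p = 8.56e-11), or 9.46-fold with an offset of 50 and 7.13-fold without background correction.

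Fst encodes follistatin, a secreted protein that binds activin. It read 9.33, 9.55 and 9.76 in feeder-free iPSC, 8.47, 8.98 and 8.53 in iPSC on feeder, and 9.78 and 9.64 in feeder cells (ILMN_1228958). The on-feeder arrays lay below every array of both other groups. Fst fell by 0.89 (SE 0.15, adjusted p = 0.00223), or 1.85-fold, and the difference ran from -1.05 to -0.79 over 17 other settings with an adjusted p of at most 0.0196. Against feeder cells iPSC on feeder read -1.05 (SE 0.17, adjusted p = 9.75e-05), while feeder-free iPSC differed from feeder cells by -0.16 (95% interval -0.53 to 0.21, adjusted p = 0.394). These comparisons share arrays.

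Pdgfra, the receptor for PDGF-A that early primitive endoderm and many fibroblasts carry, had the only rise among the members. Probe 1 (ILMN_1235932) read 8.34, 8.05 and 8.37 in feeder-free iPSC, 8.88, 8.65 and 9.11 in iPSC on feeder, and 8.76 and 8.93 in feeder cells. The on-feeder arrays lay above the feeder-free arrays and around the feeder arrays. Pdgfra rose by 0.63 (SE 0.14, adjusted p = 0.0107), or 1.54-fold, a call that ended without feeder-free array 2 (adjusted p = 0.0542) and with median scaling (0.253). Against feeder cells iPSC on feeder differed by 0.03 (95% interval -0.30 to 0.36, adjusted p = 0.852).

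The dim probe 2 of Pdgfra (ILMN_2544725) did not rise. It read 5.29, 5.43 and 5.40 without feeder cells and 5.32, 5.17 and 5.11 on them, and the arrays overlapped. The difference was -0.17 (95% interval -0.40 to 0.05, adjusted p = 0.294), and feeder cells read higher, at 6.29 and 6.21. The gap between both Pdgfra probes grew by 0.80 on feeder, with an exact permutation p of 0.1, again the smallest possible. For the 2 Dab2 probes that change was 0.06 (exact permutation p = 0.9).

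Feeder-free iPSC were compared with feeder cells to place each member. Of the 13 member probes 9 were higher and 3 lower, where 41.2% and 38.8% of all probes were. The 3 lower ones read Hnf4a and both probes of Pdgfra (-0.59 and -0.88), and Fst did not pass. In iPSC on feeder against feeder cells 9 were higher and 3 lower, where 39.5% and 39.8% of all probes were, and the lower ones read Hnf4a (-0.73), Fst and Pdgfra probe 2 (-1.05). The Hnf4a call in iPSC on feeder ended with median scaling (-0.09, adjusted p = 0.74) and without feeder array 2 (-0.43, adjusted p = 0.0543). With median scaling both Pdgfra calls in feeder-free iPSC ended too (-0.28 and -0.27, adjusted p = 0.39 and 0.187). Both comparisons use the same feeder arrays. Gata6, Sox17, Sox7, Foxa2 and Dab2 probe 2 were detected on no feeder array, and Gata4 probe 1 on 1 of 2. These probes passed the filter only through iPSC groups, so the filter itself favoured their higher calls against feeder cells.

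The in silico mixture asks whether a fall exceeds what 8% of feeder RNA would give. Dilution to 92% lowers a transcript that feeder cells lack by 0.12 on the log2 scale. Against the mixture, rebuilt from the background-corrected arrays, 4 member probes were lower in iPSC on feeder and 1 was higher (limma, 3 mixtures and 3 arrays), where 3.26% and 3.88% of all probes were. Gata4 probe 1 read -1.09 (SE 0.13, adjusted p = 0.000731), Fst -0.85 (SE 0.15, adjusted p = 0.0085), Foxa2 -0.61 (adjusted p = 0.0121) and Amn -0.51 (adjusted p = 0.029). Sox17 (-0.32, adjusted p = 0.125) and Sox7 (-0.39, adjusted p = 0.113) no longer passed, and their arrays overlapped with the mixtures.

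Gata4 probe 1 held its call against the mixture under all 17 other settings. Fst lost it with median scaling (adjusted p = 0.055) and without the filter (0.054), and Foxa2 with median scaling (0.346) and without feeder-free array 2 (0.0645). Amn lost it with median scaling (0.528), without the filter (0.0666) and on leaving out feeder-free array 2 or 3 or on-feeder array 1 or 3 (adjusted p from 0.0694 to 0.121). Pdgfra probe 1 was higher than the mixture by 0.58 (SE 0.13, adjusted p = 0.0269), a call that ended with median scaling (0.522), without the filter (0.0869) and on leaving out any of the same 4 arrays (0.0684 to 0.114). The mixture presumes the feeder share the authors chose. The mixtures hold the same arrays as the other groups.

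**Figure D2:**
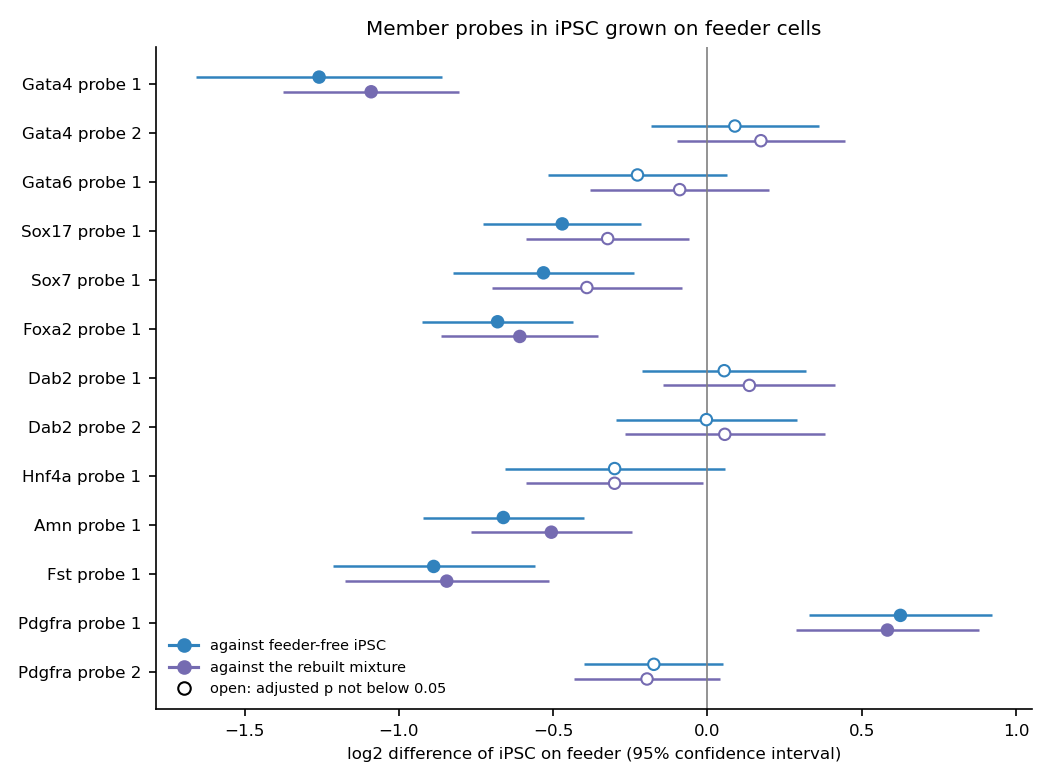
Log2 difference of each member probe in iPSC on feeder against feeder-free iPSC (blue) and against the rebuilt mixture (purple), with 95% confidence intervals; filled points have an adjusted p below 0.05. Gata4 probe 1, Foxa2, Amn and Fst are filled in both at the left and Pdgfra probe 1 at the right, while Sox17 and Sox7 are filled only against feeder-free iPSC.

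A wider list of 41 other primitive and extraembryonic endoderm genes was read by the brightest kept probe of each gene. The array held 35 of them and 26 passed the filter. Of these 12 were lower in iPSC on feeder than in feeder-free iPSC and 1 was higher, where 6.69% and 8.57% of all 10058 genes read this way were, with a median difference of -0.374 against -0.018 over all genes. Over the other settings 7 to 14 were lower, the fewest with median scaling. The 4 largest changes were falls: the water channel Aqp8 at -1.34 (adjusted p = 5.02e-05), the hedgehog ligand Ihh at -1.17 (adjusted p = 0.0008), the parathyroid hormone receptor Pth1r at -1.12 (adjusted p = 1.6e-05) and the forkhead gene Foxq1 at -1.06 (adjusted p = 0.000494). Feeder cells lacked a detected signal for all 4, and for each the arrays of both iPSC cultures did not overlap. Ihh was detected on 2 of 3 on-feeder arrays and passed the filter only through feeder-free iPSC, so the filter itself favoured its fall. Its on-feeder mean was 5.07, near the lowest detected level of those arrays (4.92 to 5.02). Against the mixture 10 of the 26 genes were lower and 0 higher, where 3.87% and 4.15% of all genes were. The median difference of the list was -0.313 there.

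Nid1, a basement membrane protein that links laminin to collagen, was the only one of the 26 that rose (0.51, SE 0.13, adjusted p = 0.0195), and feeder cells read it at 10.26 against 8.38 in feeder-free iPSC. It read 0.25 against the mixture and did not pass there (adjusted p = 0.218). Col4a1, a collagen chain of that membrane, fell by 0.61 (SE 0.11, adjusted p = 0.00241) from 13.44. Against the mixture Col4a1 read -0.53 (adjusted p = 0.0102). Other measured basement membrane and matrix genes of the list did not pass, with Col4a2 at -0.27, Lamb1 at -0.23, Hspg2 at -0.17, Sparc at -0.02 and Lamc1 at -0.01. The lipid carrier Apoe fell by 0.78 (SE 0.12, adjusted p = 0.00128) and read -0.63 against the mixture (adjusted p = 0.0114). These genes were chosen after their values were seen.

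**Figure D3:**
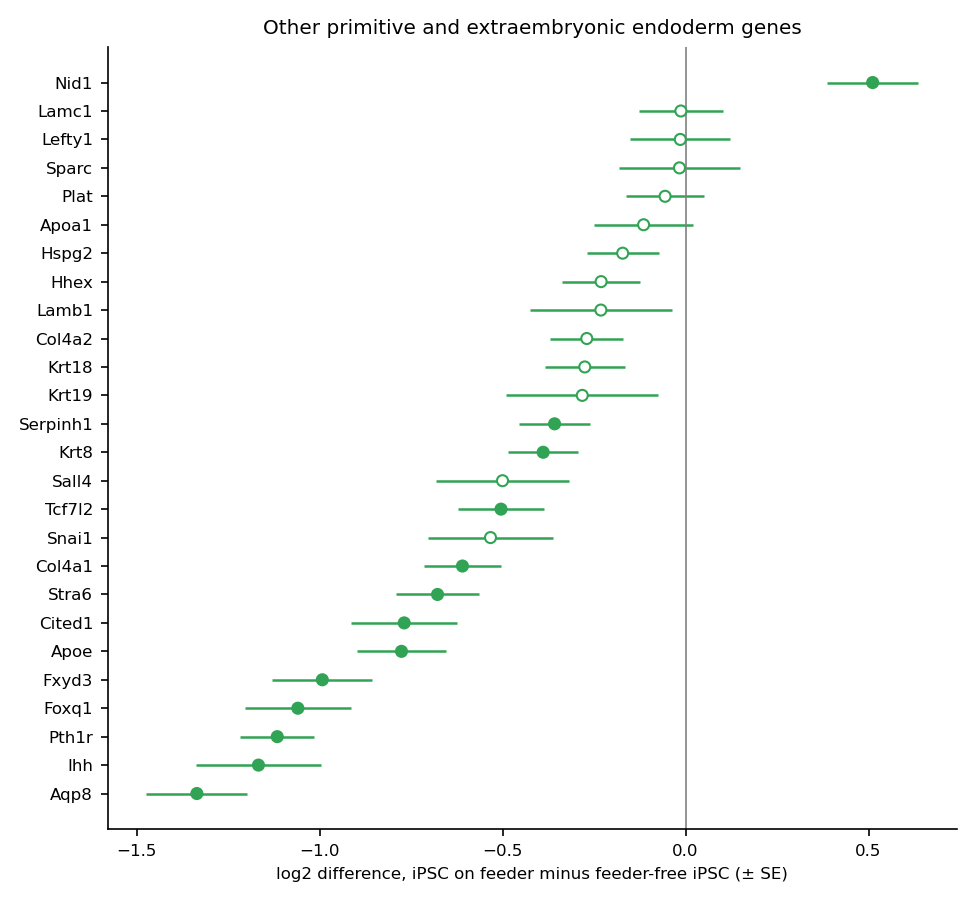
Log2 difference, iPSC on feeder minus feeder-free iPSC, of the 26 measured primitive and extraembryonic endoderm genes that are not members, with standard errors; filled points have an adjusted p below 0.05. From Aqp8 at -1.34 upward 12 filled points lie below 0 and Nid1 at 0.51 is the single filled point above 0.

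FGF and ERK genes, which steer the choice between epiblast and primitive endoderm, moved both ways: 2 of 13 measured were higher and 4 lower on feeder (4 and 6 at an unadjusted p below 0.05), where 8.57% and 6.69% of all genes were. The AP-1 subunit Fosl1 was at least 1.83-fold higher (adjusted p = 3.56e-05) and was not detected in feeder-free iPSC, while feeder cells read it at 8.67 and the difference from the mixture was 0.36 (adjusted p = 0.131). The receptor Fgfr2 rose by 0.68 (adjusted p = 0.00243), although its 2 other kept probes read 0.02 and -0.19 and did not pass. Dusp4, a phosphatase of MAP kinases, fell by 0.60 (adjusted p = 0.00269) by its brightest probe and by 0.65 by a second, and another read 0.26. Etv5, an ETS factor downstream of FGF, fell by 0.56 (adjusted p = 0.0208), and its second probe read -0.48 without passing (adjusted p = 0.0764). Against the mixture the brightest probe of Etv5 read -0.44 and did not pass (adjusted p = 0.0505), while those of Fgfr2 (0.66, adjusted p = 0.00915) and Dusp4 (-0.48, adjusted p = 0.0251) did.

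Of 13 genes of the pluripotent epiblast, which include the ligand gene Fgf4 of the FGF list, 3 were lower and 0 higher by limma. Of all genes 6.69% were lower and 8.57% higher. At an unadjusted p below 0.05, 6 were lower and 0 higher, where 28.4% of all probes passed in either direction. Klf4 read -0.94 (adjusted p = 0.00143) by its brightest probe and -0.91 by another, and one more at 0.50 that did not pass. Utf1 fell by 0.51 (adjusted p = 0.0152) and Klf2 by 0.45 (adjusted p = 0.0375). Against the mixture Klf4 stayed lower (-0.82, adjusted p = 0.0085), while Utf1 (-0.38, adjusted p = 0.0819) and Klf2 (-0.34, adjusted p = 0.072) did not pass. Nanog, Pou5f1 and Sox2 were among the 10 that did not pass against feeder-free iPSC. The median difference of the 13 genes was -0.276. Read the same way it was -0.374 for the wider endoderm list, -0.501 for the members and -0.018 over all genes. Against feeder-free iPSC a downward shift was thus shared by endoderm and epiblast genes, with no allowance made for feeder RNA. Against the mixture the median of the 13 epiblast genes was -0.199, with 1 lower and 0 higher, where 3.87% and 4.15% of all genes were. There it was -0.313 for the wider endoderm list, -0.357 for the members and -0.020 over all genes.

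Partners of Pdgfra and Fst gave 3 higher and 1 lower of 9 measured, where 8.57% and 6.69% of all genes were. Smad3, which carries activin signals, rose by 1.15 (adjusted p = 2.35e-05) and the follistatin-like gene Fstl1 by 0.60 (adjusted p = 0.0147), whose second probe read 0.48 without passing (adjusted p = 0.117). The ligand gene Pdgfb fell by 0.56 (adjusted p = 0.0107) and Pdgfa rose by 0.39 (adjusted p = 0.047), although a second Pdgfa probe read -0.43 without passing. Mean levels of all 4 genes were higher in the feeder cells, at 9.67 against 8.27 for Smad3, 9.75 against 7.40 for Fstl1, 7.46 against 7.34 for Pdgfb and 10.75 against 9.36 for Pdgfa, with feeder-free iPSC given second. Against the mixture, with its feeder share of 8%, Smad3 stayed higher (0.97, adjusted p = 0.000624) and Pdgfb lower (-0.51, adjusted p = 0.0373). Fstl1 (0.23, adjusted p = 0.256) and Pdgfa (0.20, adjusted p = 0.285) did not pass there.

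Partners of Dab2 and Amn in endocytosis gave 1 higher and 1 lower of 10 measured, close to the 8.57% and 6.69% of all genes. At an unadjusted p below 0.05, 2 were higher and 4 lower, where 28.4% of all probes passed in either direction. Ap2a1, a subunit of the clathrin adaptor AP-2, fell by 0.92 (adjusted p = 0.00351), and the endocytic receptor Lrp1 rose by 0.60 (adjusted p = 0.00655). Of 9 measured relatives and co-factors of the GATA, SOX, FOXA and HNF members 5 were higher and 0 lower by limma, where 8.57% and 6.69% of all genes were. The counts of this list were the same at an unadjusted p below 0.05. The nuclear receptor Nr2f1 rose by 1.70 (adjusted p = 2.89e-06), the GATA co-factor Zfpm2 by 0.98 (adjusted p = 8.44e-05), Gata2 by 0.55 (adjusted p = 0.0213) and Nr2f2 by 0.41 (adjusted p = 0.0314). In feeder cells these 4 read 9.24, 6.54, 9.88 and 7.97, each above both iPSC cultures. Sox18, the other gene called higher, was detected on no feeder array. It passed the filter only through iPSC on feeder, which favoured its rise. Against the mixture Nr2f1 (0.97, adjusted p = 0.00139), Zfpm2 (1.005, adjusted p = 0.00042) and Sox18 (0.45, adjusted p = 0.0337) stayed higher. Gata2 (-0.08, adjusted p = 0.718) and Nr2f2 (0.04, adjusted p = 0.884) did not pass there.

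Markers of other cells were read beside the members. Of 12 fibroblast markers 9 were measured, and 6 of these were higher on feeder, led by Lox (2.57), Col6a1 (2.50), Thy1 (1.50) and Col1a1 (1.24). Over all genes 8.57% were higher and 6.69% lower on feeder, shares that stand beside the count of every marker list here and below. Col1a2, Col3a1 and Postn were detected on no array. Against the mixture 1 fibroblast marker was higher and 1 lower, where 4.15% and 3.87% of all genes were. Of 7 measured pluripotency markers 1 was lower on feeder, and their summed level ran from 16227 to 17229 on feeder-free arrays and from 13858 to 15734 on on-feeder arrays. These sums make no allowance for feeder RNA. Against the mixture 0 of the 7 were lower and 0 higher, with a median difference of -0.044.

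Few markers of visceral endoderm were measured, and most of parietal endoderm. Of 8 visceral endoderm markers the array held 5, without a probe named for Rbp4, Cubn or Lrp2. Of these 5, 2 passed the filter and 1 (Ihh) was lower. Summed levels were 191 to 227 on feeder-free and 136 to 178 on on-feeder arrays. Ihh passed the filter only through feeder-free iPSC, which favoured its fall. Afp was detected on no array, Apob on no iPSC array and Ttr on 2 feeder-free arrays. Of 8 parietal markers, a list that includes the member Fst, 6 were measured and 2 were lower (Pth1r and Fst), with summed levels of 2001 to 2212 and 1279 to 1506, and Thbd was detected on no array. Mean levels in feeder-free iPSC were 9.13 for Pth1r, 9.55 for Fst and 8.94 for the plasminogen activator Plat, each detected on all 3 arrays. Feeder cells read Fst at 9.71 and Plat at 10.26, so neither sets iPSC apart from fibroblasts, while Pth1r was detected on no feeder array. Summed levels in feeder cells were 2182 to 2210 for the parietal list and 156 to 173 for the visceral list. Of the early factors, Gata6, Sox17 and Sox7 were each detected on all 6 iPSC arrays by their probe 1.

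Of 6 streak and definitive endoderm markers the array held 5. Of these 1 was measured (Cxcr4) and did not pass (-0.22, adjusted p = 0.223), and Mixl1 and Cer1 were detected nowhere. Of 6 trophoblast markers 4 were measured and Hand1 was lower (-0.81, adjusted p = 0.000453), and Elf5 was detected nowhere. Summed levels were 1025 to 1232 on feeder-free and 1083 to 1450 on on-feeder arrays. Tfap2c alone, with means of 9.92 and 10.15 in that order, made up most of these sums. The means of Cdx2, Hand1 and Ascl2 did not exceed 6.10 in either iPSC culture. Hand1 was detected on 2 of 3 on-feeder arrays and passed the filter only through feeder-free iPSC, which favoured its fall. The part of these cell types in the members' results was not tested.

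Single arrays differed across the members. On-feeder array 3 was the highest of its group for 8 of the 13 kept probes and array 2 the lowest for 8, against 33.6% and 36.1% of all probes. Feeder-free array 2 was the highest for 8 and array 1 the lowest for 8, against 31.1% and 35.7%. Gata6, Sox17, Sox7, both probes of Dab2, Hnf4a, Amn and Pdgfra probe 1 were all highest on on-feeder array 3.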

How the data were processed

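Gene expression was measured on Illumina BeadChips in 8 hybridised samples of a series of 11, and the other 3 are in silico mixtures. The deposited table holds non-normalized bead intensity, per the file headers, with a detection column headed as a p-value beside each array. That deposited p-value column rose with the signal (Spearman correlations from 0.9961 to 0.9987) and was read as 1 minus the p. The authors used limma, per the submitters' processing notes, which as given here name neither its version nor its role. A second deposited table of between-array normalized log2 or intensity values was not used, since its scale is not stated and 9 of its 11 columns did not track the first table (Pearson correlations from -0.0294 to -0.0265). The table has 46632 entries; 5 without a probe ID (0.498% of the signal of feeder array 1) were dropped.

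The pooled feeder-free columns were set aside. Single feeder-free arrays were recovered by taking 8% of the feeder mean from each mixture column and dividing by the 92% share. Rounded to 1 decimal and pooled again they matched the pooled columns within 0.001 for 95.72% of probes, with a largest difference of 0.0613. Each recovered array tracked its detection scores, with Spearman correlations of 0.9965 to 0.9978, against 0.9684 to 0.9714 for the pooled columns.

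In R 4.3.3, limma 3.58.1 served for background correction (normexp, with negative controls estimated from the detection column and an offset of 16), then quantile normalization and log2. A probe was kept, as 18144 of 46627 were, if its detection score exceeded 0.95 on all arrays of some group. One lmFit and eBayes model over the 8 arrays gave the group differences (residual degrees of freedom 5, prior 7.04). Tests were two-sided, adjusted by Benjamini-Hochberg over all kept probes, with a threshold of 0.05. The mixture was rebuilt from background-corrected signals and fitted with the on-feeder arrays alone (4 residual degrees of freedom). Where a group was detected on no array, the fold is a lower bound against the mean of, per array, the higher of the probe's level and the lowest detected level. The precision is limited by the number of arrays. The fit was tested on simulated data first.

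Symbols came from the platform annotation, where 29972 probes carry 1 symbol, 10 carry several and 16645 are not listed. Every member is named with every probe. Of each other list the 4 genes with the largest change past the threshold in iPSC on feeder against feeder-free iPSC are named, by the brightest kept probe. The members and lists were chosen with earlier results of these data known. Alternatives were another scaling, background correction, offset, filter, probe choice, variance prior, a replicate block, fewer arrays in the fit, the mixture columns as deposited, and leaving out each array. Tables and figures were made in Python 3.11.15 (matplotlib 3.10.9, numpy 2.4.6, pandas 2.3.3).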

Additional observations from a re-analysis of the deposited data

How the results depend on the processing

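The member counts of iPSC on feeder against feeder-free iPSC were 6 lower and 1 higher under most settings. Scaling each array to the median of all 46627 probes left 2 lower and 0 higher among members, and 160 lower and 457 higher among all probes. It also moved the median of all kept probes to 0.334 and 0.325 in the comparisons of feeder-free iPSC and of iPSC on feeder with feeder cells, with 3801 and 3706 of all probes lower there and 0 member probes lower in the first. A detection score over 0.99 left 1 member probe lower in each of these, with only 10 member probes tested. Hnf4a and the second probes of Dab2 and Pdgfra were then left out by the filter. With 1 probe per gene, 4104 genes were higher and 4124 lower in feeder-free iPSC, and 3930 and 4190 in iPSC on feeder, since fewer features were tested. Against the mixture, median scaling left 1 member lower and 0 higher (40 and 103 of all probes), and dropping the filter left 2 and 0 (346 and 407). Leaving out 1 array at a time gave 4 to 6 member probes lower and 0 to 1 higher against feeder-free iPSC (509 to 1346 and 835 to 1570 of all probes), and 2 to 4 and 0 to 1 against the mixture (179 to 936 and 314 to 1098). Beyond the change in which probes or genes entered a test, the cause of these shifts was not tested.

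Signs turned only for values whose test did not pass, apart from Hnf4a in feeder-free iPSC against feeder cells, which read 0.172 with median scaling. Between the iPSC cultures, leaving out 1 array gave -0.026 to 0.196 for Gata4 probe 2, -0.062 to 0.135 for Dab2 probe 1 and -0.082 to 0.153 for Dab2 probe 2, which read 0.047 with median scaling. Against the mixture Dab2 probe 2 ran from -0.031 to 0.227 on leaving out 1 array. Pdgfra probe 1 in iPSC on feeder against feeder cells read -0.053 without feeder array 1 and -0.083 without on-feeder array 3.

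The labels share replicate numbers across groups, but deviations of same-numbered arrays did not go together (correlations of 0.04, 0.15 and -0.194 between the iPSC cultures). With the number as a replicate block Pdgfra probe 1 read -0.054 against feeder cells, and the counts of member calls in all 4 comparisons were those without the block.

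Signal over background limits the dim probes: the median signal of detected probes was 2.56 to 3.2 times that of undetected ones, and Foxa2, Hnf4a and the second probes of Dab2 and Pdgfra lie near the lower end.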
